A study of Mus musculus with 4 samples.

Results

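Transcripts of 9 genes of the TGF-β pathway were followed in single CD4 T cells of the mouse mesenteric lymph node: the ligand Tgfb1, its activators Lrrc32 and Itgb8, the receptors Tgfbr1 and Tgfbr2, and the signalling genes Smad2, Smad3, Smad4 and Smad7. They were chosen for their roles in the pathway, and all 9 are among the 13314 genes of the count table. Male mice of the Foxp3CNS1- strain, which lacks the enhancer CNS1 of Foxp3, and of the Foxp3GFP strain were compared. Mice of each strain either received fecal microbiota of specific-pathogen-free (SPF) donors and were examined 9 days later, here called colonized, or stayed germ-free. Each of the 4 groups, which are colonized Foxp3CNS1-, germ-free Foxp3CNS1-, colonized Foxp3GFP and germ-free Foxp3GFP, gave 1 library from the pooled nodes of 3 mice. GFP+ and GFP- cells were mixed in equal amounts, GFP reporting Foxp3, so the libraries do not hold regulatory T (Treg) cells at their natural frequency. The libraries were made with 10x 3′ v3 chemistry, with about 5000 cells targeted for each.

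TGF-β1 is secreted in a latent form, which GARP, the product of Lrrc32, holds on the surface of Treg cells. Integrin αvβ8, whose β chain is encoded by Itgb8 and whose α chain is encoded by Itgav, frees the active cytokine. The active ligand joins the type II receptor Tgfbr2 to the type I receptor Tgfbr1, which phosphorylates Smad2 and Smad3. These enter the nucleus with Smad4, while Smad7 is an inhibitor that the signal itself induces. In CD4 T cells the pathway is known for inducing Foxp3 outside the thymus, through Smad binding at CNS1.

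There were 5406 analysed cells with 17929193 UMIs (unique molecular identifiers, counted transcripts) from colonized Foxp3CNS1-, 3533 cells with 9360112 from germ-free Foxp3CNS1-, 4030 cells with 13437705 from colonized Foxp3GFP and 3979 cells with 10746648 from germ-free Foxp3GFP. The median depth per cell was 2764 UMIs in colonized Foxp3CNS1-, 2286 in germ-free Foxp3CNS1-, 2832 in colonized Foxp3GFP and 2399 in germ-free Foxp3GFP, so both colonized libraries were deeper. The authors' clusters 0, 3 and 6 carried the summed Treg markers at 2697 to 3054 CPM (UMIs per 1000000 UMIs of the cells named) and the summed naive markers at 748 to 922 CPM. Clusters 1 and 2 carried them at 318 to 493 CPM and 2437 to 2864 CPM. These 2 sets are the classes used below, and they are called by their numbers. Foxp3 had 161 CPM in clusters 0, 3 and 6 of colonized Foxp3CNS1-, 146 in germ-free Foxp3CNS1-, 177 in colonized Foxp3GFP and 159 in germ-free Foxp3GFP. A 3′ tag lies outside CNS1, so these values do not check the deletion. Cluster numbers came from the expression of these same cells, so differences between clusters are descriptions with no test. With 1 library per group, a group cannot be told apart from its library or batch, no group has a replicate, and intervals between libraries are 95% intervals that cover counting error only. In a sum over cells, fewer cells of a type and less RNA per cell cannot be told apart.

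The ligand gene Tgfb1 (mm10 chromosome 7, 25687002 to 25705077, plus strand) was read in every cluster. Over all analysed cells it had 136 CPM in colonized Foxp3CNS1-, 147 in germ-free Foxp3CNS1-, 139 in colonized Foxp3GFP and 152 in germ-free Foxp3GFP. Among clusters 0 to 8, cluster 8, which carried the summed cycling markers at 3596 to 4393 CPM, had the most Tgfb1 in all 4 libraries, at 192, 225, 203 and 217 CPM in the same order of libraries. Cluster 3 came second with 175, 188, 186 and 203 CPM, and cluster 1 was lowest with 81.5, 113, 86.6 and 114 CPM. The spread of Tgfb1 over clusters was narrow beside that of the activators: clusters 0, 3 and 6 exceeded clusters 1 and 2 by 0.59, 0.33, 0.66 and 0.32 on the log2 scale in that order.

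Lrrc32 (chromosome 7, 98489283 to 98502181, plus strand), which encodes GARP, was concentrated in the cells that carry Treg markers. It had 148 CPM in cluster 3 of colonized Foxp3CNS1-, 195 in germ-free Foxp3CNS1-, 128 in colonized Foxp3GFP and 127 in germ-free Foxp3GFP. Cluster 3 ranked first in all 4 libraries. Clusters 0 and 6 followed and exchanged places between the strains, with cluster 0 at 98.0 and 101.2 CPM and cluster 6 at 83.4 and 77.2 CPM in the colonized and germ-free Foxp3CNS1- libraries. In the colonized and germ-free Foxp3GFP libraries cluster 0 had 118 and 73.1 CPM and cluster 6 had 121 and 85.8 CPM. Cluster 1 ranked last at 5.04, 9.96, 9.49 and 13.3 CPM in colonized Foxp3CNS1-, germ-free Foxp3CNS1-, colonized Foxp3GFP and germ-free Foxp3GFP, and cluster 9, which carried the highest follicular helper markers on 17 to 25 cells a library, had 0 Lrrc32 UMIs, which allows up to 12.2 CPM over the 4 libraries. Across the classes and in this order of libraries, Lrrc32 stood at 110, 114, 121 and 86.3 CPM in clusters 0, 3 and 6, against 7.84, 18.6, 14.7 and 15.3 CPM in clusters 1 and 2. After each cell was thinned to 1000 UMIs, a Lrrc32 UMI was found in 9.74%, 10.5%, 11.1% and 7.71% of cells of clusters 0, 3 and 6, against 0.579%, 2.08%, 1.48% and 1.14% of cells of clusters 1 and 2. Before thinning these shares were 23.5%, 20.0%, 25.6% and 17.7%, against 2.17%, 3.88%, 3.17% and 3.48%, at median depths of 2538, 2069, 2621 and 2231 UMIs per cell, against 2830, 2494, 2856 and 2601. Thinning left out 7 to 21 cells a library of the first class and 0 or 1 of the second.

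Itgb8 (chromosome 12, 119158022 to 119238802, minus strand) was the member most restricted to particular clusters. In cluster 3 it had 34.5 CPM on 71 UMIs in colonized Foxp3CNS1-, 48.4 CPM on 36 UMIs in germ-free Foxp3CNS1-, 28.4 CPM on 32 UMIs in colonized Foxp3GFP and 68.3 CPM on 34 UMIs in germ-free Foxp3GFP. Both germ-free libraries lay above both colonized ones there. Clusters 0 and 6 had less, with 6.38 to 18.5 CPM and 9.66 to 18.5 CPM over the 4 libraries. Clusters 1 and 2 together held 1, 3, 0 and 8 Itgb8 UMIs in the same order of libraries. After thinning, 2.09%, 2.15%, 1.46% and 1.79% of cells of clusters 0, 3 and 6 had an Itgb8 UMI, against 0%, 0.181%, 0% and 0.201% of cells of clusters 1 and 2, where the values of 0 allow up to 0.272% by the exact interval. Before thinning the shares were 4.60%, 5.09%, 3.29% and 4.92%, against 0.0723%, 0.271%, 0% and 0.535%. The follicular helper cells of cluster 9 held 0, 3, 0 and 7 Itgb8 UMIs on 24, 17, 18 and 25 cells, all of them in germ-free libraries. Itgav, which encodes the partner chain, had 15.0, 18.0, 14.7 and 19.0 CPM in clusters 0, 3 and 6, against 4.41, 7.80, 5.46 and 5.92 CPM in clusters 1 and 2, and was again higher in the germ-free library of each strain.

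A further set of cells with Itgb8 appeared under the authors' second clustering, which labels 9041 cells. Subset s0, with the summed Treg markers at 4527 to 4798 CPM, had 34.2, 39.2, 25.9 and 57.1 CPM of Itgb8 in colonized Foxp3CNS1-, germ-free Foxp3CNS1-, colonized Foxp3GFP and germ-free Foxp3GFP. Subset s5 had 13.0 CPM on 13 UMIs in colonized Foxp3CNS1-, 41.6 CPM on 19 UMIs in germ-free Foxp3CNS1-, 3.47 CPM on 2 UMIs in colonized Foxp3GFP and 60.2 CPM on 22 UMIs in germ-free Foxp3GFP. The germ-free values of subset s5 were thus as high as those of subset s0, and the colonized ones were the lower pair. Subset s5 also differed in its markers: the summed follicular helper markers had 673, 1701, 810 and 1884 CPM and the summed Treg markers 943, 1309, 852 and 2078 CPM in that order, all 7 and all 8 of them detected. These sums moved with Itgb8 across the libraries, and their part in it was not tested. Foxp3, a listed Treg marker, had 21.9, 15.3, 6.94 and 27.4 CPM in subset s5, against 227, 236, 245 and 211 CPM in subset s0. The Treg sum of subset s5 thus came mostly from the other listed markers. Lrrc32 did not mark this subset, with 5.98, 17.5, 6.94 and 19.2 CPM against 152, 200, 138 and 133 CPM in subset s0.

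**Figure D1:**
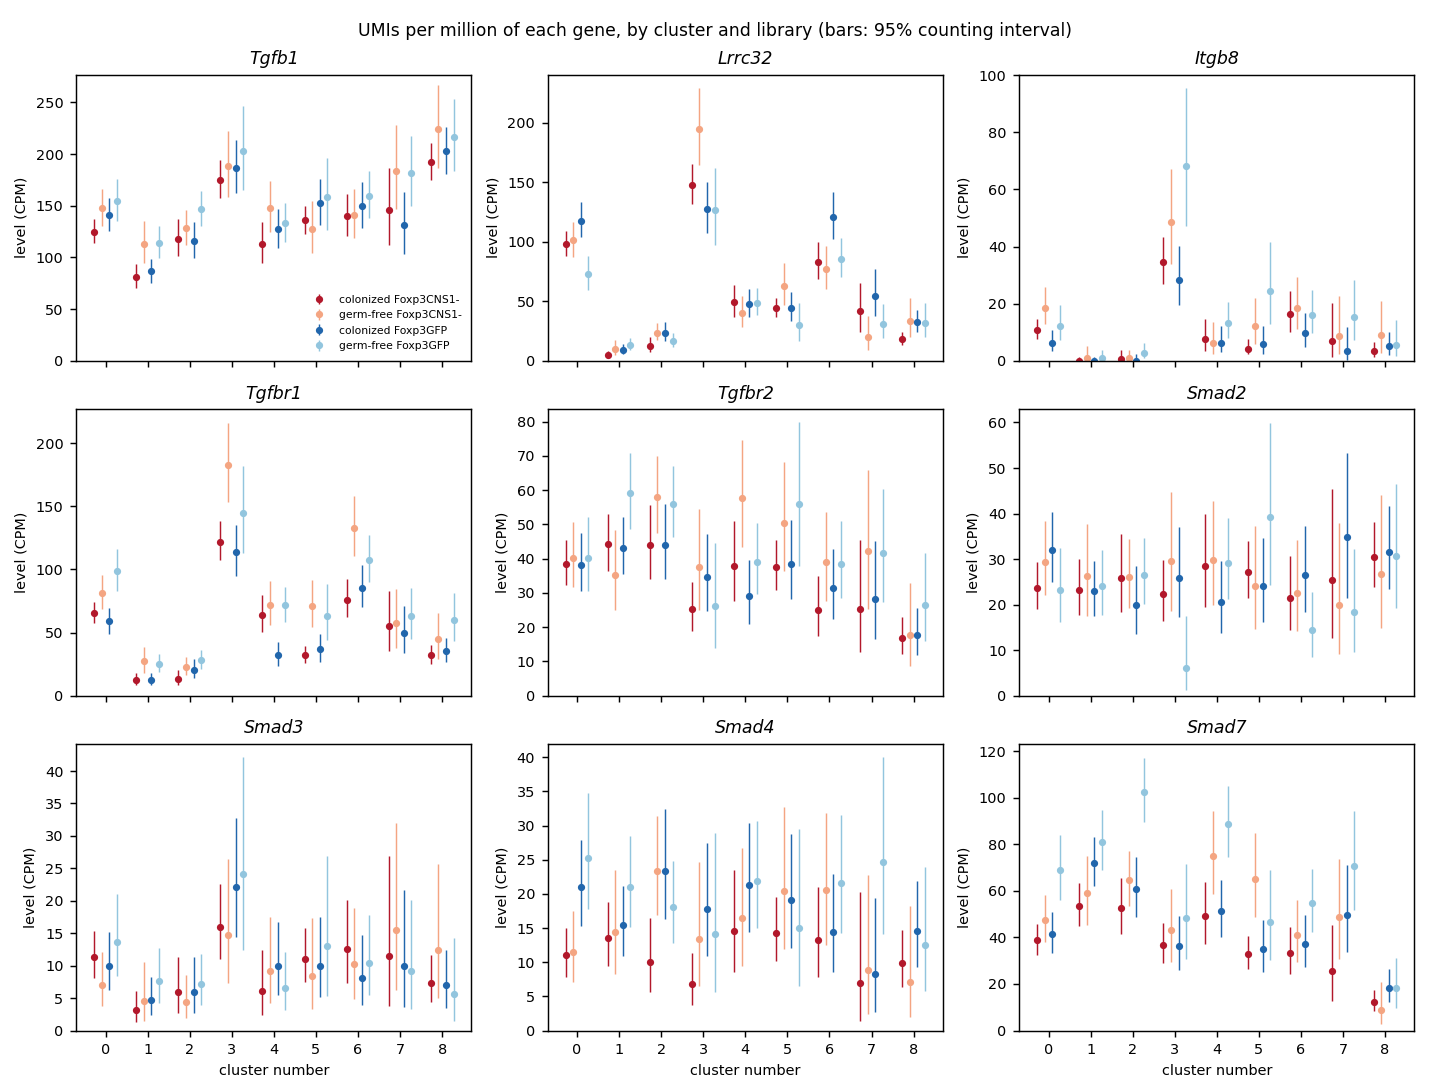
Level of each of the 9 genes in CPM (y axis, with its own scale in each panel) in clusters 0 to 8 (x axis) of the 4 libraries. Points are UMIs summed per cluster and library, and bars are 95% intervals for counting error; Lrrc32, Itgb8 and Tgfbr1 peak in cluster 3 in every library, while Smad7 is lowest in cluster 8.

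The type I receptor Tgfbr1 (chromosome 4, 47353222 to 47414931, plus strand) followed the same clusters as Lrrc32. Cluster 3 had 122, 183, 114 and 145 CPM of Tgfbr1 in colonized Foxp3CNS1-, germ-free Foxp3CNS1-, colonized Foxp3GFP and germ-free Foxp3GFP. Cluster 6 had 76.0, 133, 85.3 and 108 CPM, and cluster 0 had 65.5, 81.1, 58.8 and 98.4 CPM, so the order 3, 6, 0 held in all 4 libraries. Clusters 1 and 2 took the lowest 2 places everywhere, at 12.7 to 27.2 CPM and 13.3 to 28.0 CPM. Clusters 0, 3 and 6 held 64.8%, 62.2%, 60.0% and 51.1% of the Tgfbr1 UMIs of their libraries, against 38.8%, 38.0%, 34.0% and 29.9% of all UMIs.

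The type II receptor Tgfbr2 (chromosome 9, 116084293 to 116175360, minus strand) leaned the other way between the classes. In colonized Foxp3CNS1-, germ-free Foxp3CNS1-, colonized Foxp3GFP and germ-free Foxp3GFP it had 31.9, 39.4, 35.5 and 37.4 CPM in clusters 0, 3 and 6, against 44.1, 49.5, 43.5 and 57.5 CPM in clusters 1 and 2, lower in the first class of every library. The counting interval of that difference crossed 0 in germ-free Foxp3CNS1- (-0.67 to 0.016) and colonized Foxp3GFP (-0.61 to 0.024). Cluster 1 of germ-free Foxp3CNS1-, at 35.3 CPM, was below clusters 0, 3 and 6 of that library. Cluster 8 had 16.9, 17.8, 17.7 and 26.6 CPM. Among the 36 sums of clusters 0 to 8 and 4 libraries, which share libraries and depth, Tgfbr1 ran with Itgb8 (Pearson r = 0.89 of log2(CPM + 10), a description) and with Lrrc32 (r = 0.87), and Tgfbr2 ran with Smad7 (r = 0.82).

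Because the 2 receptor genes leaned opposite ways between these cells, the 250 bases before their annotated starts are shown, from RefSeq on GRCm38.p6, read 5′ to 3′ on the gene's strand. Capitals mark CAGAC, the core motif of Smad proteins, which was searched on both strands (GTCTG on the other one). The Tgfbr1 window, chr4:47352972-47353221 on the plus strand, has no match. A second annotated Tgfbr1 start, whose window is chr4:47385966-47386215 on the plus strand and is not printed, has 1. The Tgfbr2 window, chr9:116175364-116175613 on the minus strand, has 1.
Tgfbr1: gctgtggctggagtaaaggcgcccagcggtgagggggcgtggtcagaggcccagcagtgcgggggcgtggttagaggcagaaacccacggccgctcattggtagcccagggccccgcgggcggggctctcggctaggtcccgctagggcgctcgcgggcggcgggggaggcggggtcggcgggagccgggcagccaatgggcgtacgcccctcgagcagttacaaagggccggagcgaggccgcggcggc
Tgfbr2: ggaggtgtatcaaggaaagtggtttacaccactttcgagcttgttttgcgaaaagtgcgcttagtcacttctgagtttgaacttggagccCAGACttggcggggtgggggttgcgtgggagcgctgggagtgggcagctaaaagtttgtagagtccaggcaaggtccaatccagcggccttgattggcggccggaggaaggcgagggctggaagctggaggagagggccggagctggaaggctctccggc
The motif is present in 42.2% of 32851 promoter windows of this length, so 1 match is a common state and no contrast between the receptors is drawn from it. The forkhead motif TAAACA, also searched on both strands and present in 12.03% of windows, matched in neither. GC content was 74.8% and 52.8% before the 2 Tgfbr1 starts and 58.4% before Tgfbr2, against a median of 52.4% over all windows. A match describes these letters only.

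Smad2, Smad3 and Smad4 were read at low levels. Between the classes, Smad3 kept its direction in all 4 libraries, and Smad2 and Smad4 did not. Smad3 (chromosome 9, 63646767 to 63757994, minus strand), a receptor-activated Smad, had 12.9, 9.57, 12.5 and 14.0 CPM in clusters 0, 3 and 6, against 4.16, 4.41, 5.22 and 7.40 CPM in clusters 1 and 2 of colonized Foxp3CNS1-, germ-free Foxp3CNS1-, colonized Foxp3GFP and germ-free Foxp3GFP. It reached 16.0, 14.8, 22.2 and 24.1 CPM in cluster 3, so it was higher with the Treg markers in each library. Smad2 (chromosome 18, 76241580 to 76310963, plus strand), its partner, had 22.9, 27.6, 28.9 and 17.1 CPM in clusters 0, 3 and 6, against 24.2, 26.1, 21.9 and 25.4 CPM in clusters 1 and 2. Its direction between the classes changed from library to library, and the germ-free Foxp3GFP value rests on 55 UMIs, 3 of them in cluster 3. Smad4 (chromosome 18, 73639009 to 73703780, minus strand), the common partner, had 10.2, 14.4, 18.4 and 22.1 CPM in clusters 0, 3 and 6, against 12.2, 20.0, 18.4 and 19.5 CPM in clusters 1 and 2. The colonized Foxp3CNS1- library was lowest in both classes.

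Smad7 (chromosome 18, 75367529 to 75395935, plus strand), the inhibitor, was lower in clusters 0, 3 and 6 than in clusters 1 and 2. Its levels in colonized Foxp3CNS1-, germ-free Foxp3CNS1-, colonized Foxp3GFP and germ-free Foxp3GFP were 37.1, 44.8, 39.0 and 60.2 CPM in clusters 0, 3 and 6, against 53.1, 62.4, 67.8 and 92.2 CPM in clusters 1 and 2, so the first class was the lower one in all 4 libraries. Inside clusters 0, 3 and 6 the order was the other one: cells with a Foxp3 UMI had 43.0, 59.9, 41.1 and 65.5 CPM, against 34.1, 38.7, 37.7 and 57.4 CPM in cells without. Cluster 8 had the least Smad7 in every library, at 12.3, 8.91, 18.4 and 18.2 CPM. Its highest place went to cluster 1 in both colonized libraries, with 53.5 CPM in Foxp3CNS1- and 72.0 CPM in Foxp3GFP, to cluster 4 in germ-free Foxp3CNS1- with 75.0 CPM and to cluster 2 in germ-free Foxp3GFP with 103 CPM.

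Within each library, cells with a Foxp3 UMI were then compared with cells without one, the only comparison in which libraries serve as replicates. UMIs were summed over both kinds of cell per library and tested in edgeR's quasi-likelihood model with library as a block and Benjamini-Hochberg adjustment over 10286 genes. There were 1074, 564, 844 and 636 cells with a Foxp3 UMI in colonized Foxp3CNS1-, germ-free Foxp3CNS1-, colonized Foxp3GFP and germ-free Foxp3GFP. Their median depth was 2838, 2325, 3040 and 2471 UMIs, against 2751, 2282, 2782 and 2386 UMIs in the other cells. Cells that express Foxp3 without a captured UMI fall among the cells without one. The p-values rest on how the difference between both kinds of cell varies over 4 libraries, which also differ in condition. At an adjusted p under 0.05, 5 of the 9 genes were higher, where 10.5% of all genes tested were, and 1 was lower, where 7.92% were. The naive and the follicular helper markers went the other way, 6 of 7 of each being lower, while 6 of 7 effector markers were higher. Clusters 1 and 2, with the naive markers, held 5342 cells, 296 of them with a Foxp3 UMI. Cluster 9, with the follicular helper markers, held 84 cells, 3 of them with a Foxp3 UMI. The part of these cell types in the values below was not tested.

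The activators differed most. Lrrc32 had 123, 142, 124 and 88.7 CPM in cells with a Foxp3 UMI of colonized Foxp3CNS1-, germ-free Foxp3CNS1-, colonized Foxp3GFP and germ-free Foxp3GFP, against 41.2, 44.4, 41.4 and 33.8 CPM in cells without. All 4 values with Foxp3 lay above all 4 without, and the log2 difference was 1.51 ± 0.065 (SE, 4 libraries, adjusted p = 9.6e-16 in edgeR). Per cell, 31.9%, 29.1%, 30.9% and 20.6% of the cells with a Foxp3 UMI had a Lrrc32 UMI, against 10.2%, 8.76%, 9.73% and 7.39% of the others. Itgb8 had 19.8, 26.6, 15.2 and 14.6 CPM in cells with a Foxp3 UMI, against 6.39, 9.65, 3.50 and 11.98 CPM in cells without, which do not overlap, a log2 difference of 1.31 ± 0.19 (SE, 4 libraries, adjusted p = 7.0e-06 in edgeR). The germ-free Foxp3GFP library stood apart with nearly equal values, and without it the difference was 1.64. In that library 4.25% of cells with and 2.72% of cells without a Foxp3 UMI had an Itgb8 UMI.

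The receptors went in opposite directions. In the same 4 libraries Tgfbr1 had 89.2, 121, 78.7 and 109 CPM in cells with a Foxp3 UMI, against 40.5, 60.1, 34.7 and 53.4 CPM in cells without, with a log2 difference of 1.04 ± 0.068 (SE, 4 libraries, adjusted p = 5.7e-12 in edgeR). It lay between 1.01 and 1.18 in the single libraries, and all 4 values with Foxp3 were above all 4 without. Tgfbr2 had 23.6, 42.5, 30.1 and 33.3 CPM with a Foxp3 UMI, against 36.4, 44.7, 36.7 and 48.9 CPM without, and was lower in 4 of 4 libraries (log2 difference -0.45 ± 0.10, SE, adjusted p = 0.0015 in edgeR). It was not called when library was left out as a block (adjusted p = 0.11). The type III receptor Tgfbr3, which presents ligand to Tgfbr2, was lower as well, by a log2 difference of -1.93 (adjusted p = 9.9e-06 in edgeR, lower in 4 of 4 libraries).

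Of the remaining members, again in colonized Foxp3CNS1-, germ-free Foxp3CNS1-, colonized Foxp3GFP and germ-free Foxp3GFP, Smad3 had 14.1, 11.2, 13.0 and 11.1 CPM with a Foxp3 UMI, against 8.15, 7.57, 7.97 and 9.13 CPM without, a log2 difference of 0.57 ± 0.16 (SE, 4 libraries, adjusted p = 0.0092 in edgeR). Tgfb1 had 154, 171, 159 and 163 CPM, against 131, 141, 133 and 149 CPM, a difference of 0.17 ± 0.049 (SE, 4 libraries, adjusted p = 0.014 in edgeR). For Smad3 and Tgfb1 too, all 4 values with a Foxp3 UMI lay above all 4 without, so this separation does not set Lrrc32, Itgb8 and Tgfbr1 apart. The share of all genes with it is not given here. Both are small calls that DESeq2 did not make (adjusted p = 0.26 for Smad3 and 0.24 for Tgfb1). Smad3 lost its call without either colonized library (adjusted p = 0.084 without colonized Foxp3GFP and 0.14 without colonized Foxp3CNS1-), and Tgfb1 without any 1 of 3 libraries (adjusted p from 0.062 to 0.14). Smad2, Smad4 and Smad7 were not called, at -0.15, -0.00045 and -0.12 (adjusted p = 0.40, 1.0 and 0.40 in edgeR). Inside clusters 0, 3 and 6 alone, a setting added after the data were seen, Lrrc32 (0.72, adjusted p = 4.5e-12), Tgfbr1 (0.60, adjusted p = 4.6e-09) and Itgb8 (0.64, adjusted p = 0.016) were still higher in cells with a Foxp3 UMI by edgeR. There, by edgeR, Tgfbr2 was at -0.14 (adjusted p = 0.69), Smad3 at 0.22 (adjusted p = 0.71) and Smad7 at 0.32 (adjusted p = 0.083). In these clusters germ-free Foxp3GFP went the other way for Itgb8, at 15.5 CPM on 17 UMIs with and 26.1 CPM on 55 UMIs without a Foxp3 UMI.

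**Figure D2:**
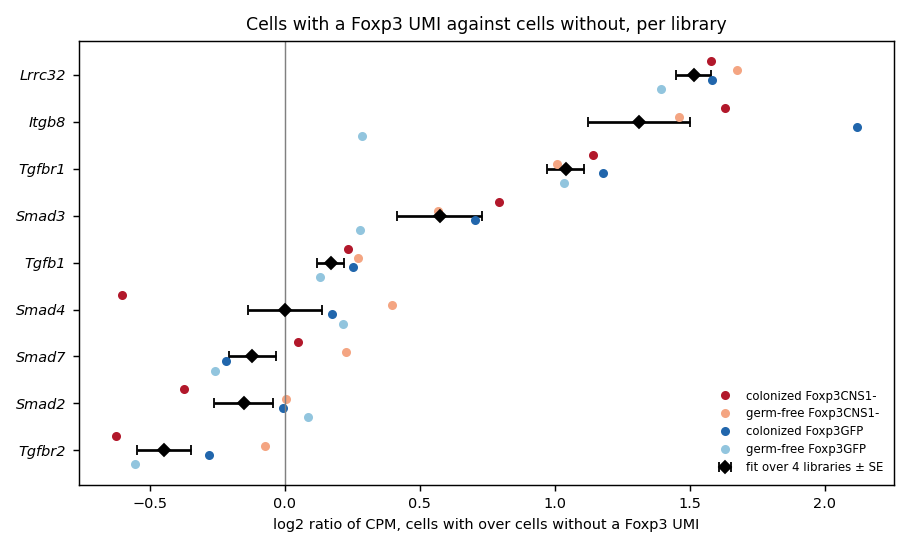
Log2 difference between cells with and cells without a Foxp3 UMI (x axis) for each of the 9 genes (y axis). Coloured points are the 4 libraries, and black marks with bars are the edgeR estimates ± SE; Lrrc32, Itgb8 and Tgfbr1 lie to the right of 0 in every library and Tgfbr2 to the left.

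Other pathway genes went both ways in this comparison. Of 49 listed, 30 could be tested; 6 were higher and 4 were lower, where 10.5% and 7.92% of all genes tested were. Their median log2 difference was -0.0041, against 0.0010 for all genes. Those higher included the feedback inhibitors of TGF-β signalling Pmepa1 (0.67, adjusted p = 1.4e-05) and Ldlrad4 (0.49, adjusted p = 9.1e-05) and the Smad corepressor Skil (0.43, adjusted p = 9.4e-05), each by edgeR. Genes reported as raised by TGF-β in T cells leaned to the Foxp3 side: leaving Foxp3 out, 8 of 10 tested were higher by edgeR, where 10.5% of all genes tested were. This list shares Skil, Ski, Tgif1, Pmepa1 and Ldlrad4 with the list of other pathway genes, so the counts overlap. Itgae, the αE integrin chain (1.55, adjusted p = 1.4e-12), and the chemokine receptor Ccr8 (1.57, adjusted p = 8.1e-05) had the largest differences named. Treg cells are known to express several of these genes, so the list is not specific to the signal.

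Colonization was examined as the ratio of the colonized to the germ-free library of the same strain, wherever a gene reached 50 UMIs in the pair. The comparisons of strains reuse the same 4 libraries. A ratio past 1.5-fold in either direction is counted, and no test between groups was made. Tgfbr1 was lower in the colonized library of both strains and in both classes. In clusters 0, 3 and 6 it had 84.3 CPM in colonized and 117 CPM in germ-free Foxp3CNS1- mice (log2 ratio -0.47, interval -0.65 to -0.28). In Foxp3GFP mice it had 79.5 CPM in the colonized and 109 CPM in the germ-free library (-0.46, -0.67 to -0.24). Clusters 1 and 2 gave 13.0 against 24.4 CPM in Foxp3CNS1- (-0.91, -1.45 to -0.38) and 15.7 against 26.6 CPM in Foxp3GFP (-0.77, -1.24 to -0.31). The ratio was below 0 in 9 of 9 clusters in each strain, with the interval below 0 in 5 of them each. This direction was not particular to Tgfbr1. In Foxp3CNS1- and Foxp3GFP, Tgfb1 was below 0 in 8 of 9 and 9 of 9 clusters. Smad7 was below 0 in 7 of 7 and 8 of 8 clusters with enough UMIs. The share of all genes with this pattern is not given here. The colonized libraries were also the deeper ones in both strains. With each cell thinned to 1000 UMIs, the ratios were -0.52 in Foxp3CNS1- and -0.35 in Foxp3GFP in clusters 0, 3 and 6, and -0.90 and -0.60 in clusters 1 and 2.

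Among the 9 genes in clusters 0, 3 and 6 of Foxp3CNS1-, 0 were past 1.5-fold with colonization, where 8.2% of all genes were. Tgfbr1 alone had an interval that left out 0. It lay below 0, where the interval of 13.8% of all genes did, so this count is near the background. In Foxp3GFP 3 of 9 were past it, where 7.91% of all genes were. Smad7 had 39.0 CPM in the colonized and 60.2 CPM in the germ-free library (-0.63, -0.93 to -0.32), and Itgb8 had 12.7 on 58 UMIs against 22.4 CPM on 72 UMIs (-0.82, -1.35 to -0.30). Smad2 was higher, with 28.9 on 132 UMIs against 17.1 CPM on 55 UMIs (0.75, 0.29 to 1.24). The matching Foxp3CNS1- ratios were -0.27 (-0.56 to 0.024) for Smad7, -0.40 (-0.80 to 0.012) for Itgb8 and -0.27 (-0.64 to 0.11) for Smad2. Lrrc32, with 121 CPM in colonized and 86.3 CPM in germ-free Foxp3GFP, had an interval above 0 (0.49, 0.28 to 0.70), whereas its Foxp3CNS1- ratio was -0.05 (-0.23 to 0.12) with 110 and 114 CPM.

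Part of these values depends on how the cells were picked. Taking all cells with a Foxp3 UMI in place of the clusters, the Foxp3GFP colonization ratio was 0.06 for Itgb8, which reverses its sign, and 0.05 for Smad2. Inside clusters 0, 3 and 6, Smad2 stayed higher in colonized Foxp3GFP on both sides of this split. Cells with a Foxp3 UMI had 29.1 CPM on 51 UMIs in the colonized and 15.5 CPM on 17 UMIs in the germ-free library. Cells without one had 28.8 and 18.0 CPM. Within clusters 0, 3 and 6, the Itgb8 level of germ-free Foxp3GFP was 15.5 CPM in cells with and 26.1 CPM in cells without a Foxp3 UMI. In the other 3 libraries the level was the higher one in cells with a Foxp3 UMI, with 28.1 against 14.1 CPM in colonized Foxp3CNS1-, 38.3 against 19.3 CPM in germ-free Foxp3CNS1- and 17.7 against 9.59 CPM in colonized Foxp3GFP. The summed follicular helper markers of these clusters had 161 and 358 CPM in colonized and germ-free Foxp3CNS1- and 140 and 219 CPM in colonized and germ-free Foxp3GFP. The summed plasma cell markers had 334 and 69.3 CPM, and 215 and 57.0 CPM, in the same pairs. All 7 and all 3 of these markers were detected, and their part in the member ratios was not tested.

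**Figure D3:**
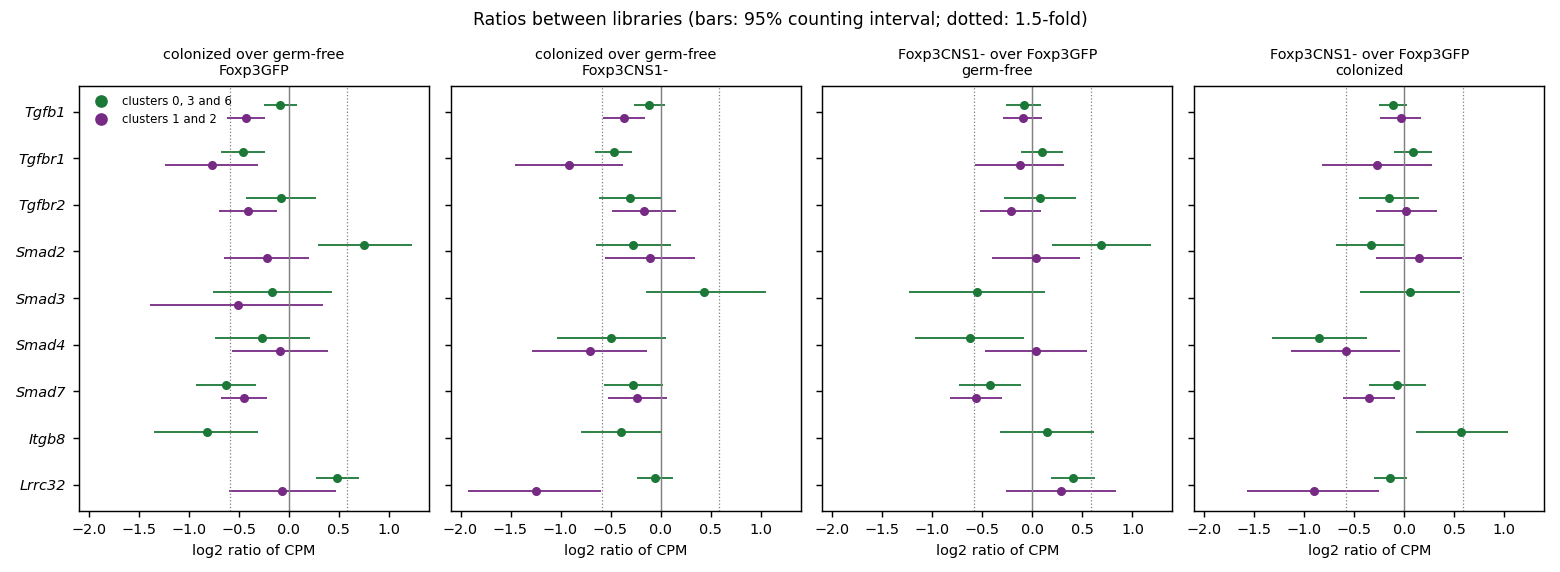
Log2 ratio between 2 libraries (x axis) for each of the 9 genes (y axis) in 4 comparisons, for clusters 0, 3 and 6 and for clusters 1 and 2. Bars are 95% counting intervals and dotted lines mark 1.5-fold; Tgfbr1 lies below 0 in both colonization panels and Smad4 in clusters 0, 3 and 6 lies below 0 in all 4 panels.

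In clusters 1 and 2 every member with enough UMIs had a ratio below 0 under colonization, 7 of 7 in Foxp3CNS1- and 8 of 8 in Foxp3GFP. Among all genes 61.9% were below 0 in Foxp3CNS1- and 57.0% in Foxp3GFP. The medians of the members were -0.37 and -0.41, against -0.07 and -0.05 for all genes. Past 1.5-fold were 3 of 7 in Foxp3CNS1- (7.73% of all genes) and 1 of 8 in Foxp3GFP (7.04%), which was Tgfbr1. Tgfb1 was lower in both strains, with 95.02 CPM in colonized and 123 CPM in germ-free Foxp3CNS1- (-0.37, -0.58 to -0.16), and 97.6 CPM in colonized and 131 CPM in germ-free Foxp3GFP (-0.43, -0.62 to -0.24). Smad7 had 53.1 against 62.4 CPM in Foxp3CNS1- (-0.23, -0.52 to 0.060) and 67.8 against 92.2 CPM in Foxp3GFP (-0.44, -0.67 to -0.21). Besides Tgfbr1, Lrrc32 (7.84 against 18.6 CPM, -1.25, -1.93 to -0.60) and Smad4 (12.2 against 20.0 CPM, -0.71, -1.28 to -0.14) were past the fold in Foxp3CNS1-. Foxp3 moved with Lrrc32 there, with 13.7 CPM in the colonized and 30.2 CPM in the germ-free library, and so did the summed Treg markers, with 318 and 493 CPM. The part of Treg cells among clusters 1 and 2 in the Lrrc32 ratio was not tested.

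**Figure D4:**
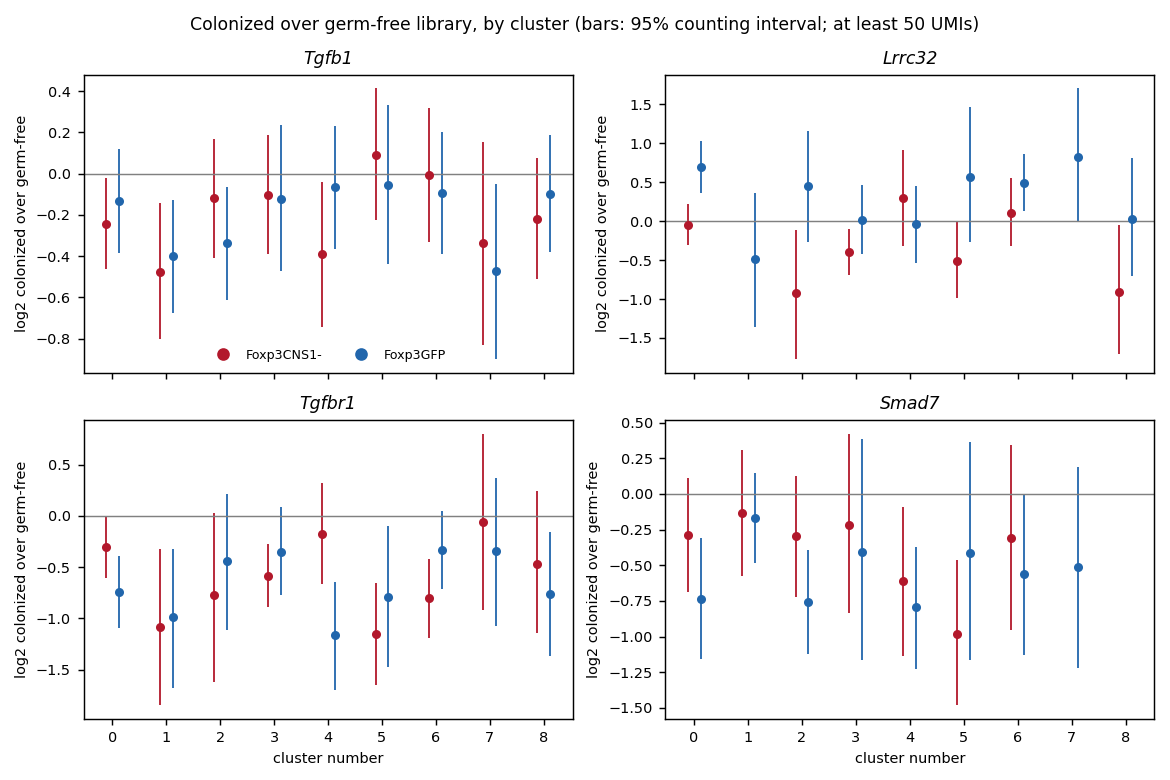
Log2 ratio of the colonized to the germ-free library (y axis) of Tgfb1, Lrrc32, Tgfbr1 and Smad7 in each of clusters 0 to 8 (x axis), for both strains. Points are ratios of summed UMIs with at least 50 UMIs over both libraries, and bars are 95% counting intervals. Tgfbr1 lies below 0 in 9 of 9 clusters of each strain, and Smad7 in every cluster shown. Tgfb1 lies below 0 in 8 of 9 clusters of Foxp3CNS1- and 9 of 9 of Foxp3GFP, whereas Lrrc32 lies on both sides.

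Of the other pathway genes in clusters 0, 3 and 6, 1 of 25 was past 1.5-fold with colonization in Foxp3CNS1-, a higher one, where 8.2% of all genes were. In Foxp3GFP 4 of 25 were, 2 higher and 2 lower, where 7.91% of all genes were. In Foxp3GFP, Furin, the protease that matures the TGF-β1 precursor, had 26.7 CPM in the colonized and 11.2 CPM in the germ-free library (1.25, 0.71 to 1.83), and Traf6, which links the receptors to kinase signalling, had 12.1 and 4.68 CPM (1.37, 0.52 to 2.30). Smad1, a Smad of the BMP branch, had 8.20 CPM in colonized and 4.22 CPM in germ-free Foxp3CNS1- (0.96, 0.12 to 1.88), against 7.45 and 11.5 CPM in colonized and germ-free Foxp3GFP (-0.63, -1.35 to 0.081). Rgs16, a regulator of G protein signalling reported as raised by TGF-β, was lower in the colonized library of both strains, with 10.9 against 27.6 CPM in Foxp3CNS1- (-1.34, -1.79 to -0.89) and 11.6 against 25.6 CPM in Foxp3GFP (-1.14, -1.67 to -0.62).

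In clusters 1 and 2, 5 of 24 of these pathway genes were lower past 1.5-fold in Foxp3CNS1- and 2 of 26 in Foxp3GFP, and 0 were higher past it in either. Among all genes 416 of 7207 were lower past it in Foxp3CNS1- and 330 of 7613 in Foxp3GFP, so the Foxp3GFP count is near the background. The corepressor Ski had 33.1 against 49.8 CPM in Foxp3CNS1- (-0.59, -0.94 to -0.24) and 31.1 against 50.1 CPM in Foxp3GFP (-0.69, -1.02 to -0.36). All 7 tested genes of the list reported as raised by TGF-β were below 0 in each strain, with medians of -0.59 in Foxp3CNS1- and -0.47 in Foxp3GFP. This list shares genes with the pathway list, Ski among them, so the counts overlap. Of all genes 61.9% and 57.0% were below 0, with medians of -0.07 and -0.05. Id3, an inhibitor of E proteins, had 97.7 against 161 CPM in Foxp3CNS1- (-0.72, -0.92 to -0.53) and 99.8 against 197 CPM in Foxp3GFP (-0.98, -1.16 to -0.81).

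Smad4 was lower in Foxp3CNS1- in clusters 0, 3 and 6 of both states. It had 10.2 CPM on 71 UMIs in colonized Foxp3CNS1- against 18.4 CPM on 84 UMIs in colonized Foxp3GFP (-0.85, -1.33 to -0.38). In germ-free mice it had 14.4 CPM on 51 UMIs against 22.1 CPM on 71 UMIs (-0.62, -1.17 to -0.085). Smad4 was the 1 member of 9 past 1.5-fold in colonized mice, where 3.9% of all genes were. With Smad2, at 27.6 against 17.1 CPM (0.69, 0.20 to 1.19), it made 2 of 9 in germ-free mice, where 5.28% were. The Smad2 ratio rests on the same germ-free Foxp3GFP library, with 55 UMIs, as the Smad2 colonization ratio above. Among colonized mice Smad4 was lower in Foxp3CNS1- in 9 of 9 clusters, 4 of which reached 50 UMIs. In germ-free mice it was lower in 7 of 9 clusters, and in 2 of the 3 clusters that reached 50 UMIs. Cluster 2, which also reached it, had 23.3 CPM in Foxp3CNS1- and 18.0 CPM in Foxp3GFP. In the same order, cluster 0 had 11.4 and 25.3 CPM, cluster 3 had 13.5 and 14.1 CPM and cluster 6 had 20.6 and 21.7 CPM. Clusters 1 and 2 together had 20.0 CPM in germ-free Foxp3CNS1- and 19.5 CPM in germ-free Foxp3GFP (0.04, -0.47 to 0.54). Over all cells with a Foxp3 UMI the Smad4 ratio was -1.27 in colonized and -0.18 in germ-free mice.

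Tgfb1, Tgfbr1 and Tgfbr2 had strain ratios in clusters 0, 3 and 6 between -0.15 and 0.10, with all 6 intervals across 0. For Tgfbr1 they were 0.08 (-0.11 to 0.28) in colonized and 0.10 (-0.11 to 0.30) in germ-free mice, so the counting interval left out a difference of 1.5-fold. Lrrc32 had 110 CPM in Foxp3CNS1- and 121 CPM in Foxp3GFP among colonized mice (-0.14, -0.30 to 0.021), and 114 and 86.3 CPM among germ-free mice (0.40, 0.18 to 0.63). Itgb8 had 18.8 and 12.7 CPM in colonized (0.57, 0.11 to 1.04) and 24.8 and 22.4 CPM in germ-free mice (0.14, -0.32 to 0.61). Smad7 was lower in germ-free Foxp3CNS1- than in germ-free Foxp3GFP, with 44.8 and 60.2 CPM (-0.43, -0.74 to -0.12), and had 37.1 and 39.0 CPM in colonized mice (-0.07, -0.35 to 0.21). By cluster it was lower in Foxp3CNS1- in 7 of the 8 clusters with 50 UMIs in each state.

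Clusters 1 and 2 gave 2 of 7 members past 1.5-fold by strain in colonized mice (4.81% of all genes) and 0 of 7 in germ-free mice (5.16%). The 2 were Smad4, with 12.2 CPM in Foxp3CNS1- and 18.4 CPM in Foxp3GFP (-0.59, -1.13 to -0.049), and Lrrc32, with 7.84 and 14.7 CPM (-0.90, -1.57 to -0.26). Foxp3 moved with Lrrc32 here too, with 13.7 CPM in Foxp3CNS1- and 25.6 CPM in Foxp3GFP (-0.90, -1.40 to -0.42). Smad7 was lower in Foxp3CNS1- in both states, with 53.1 against 67.8 CPM in colonized (-0.35, -0.62 to -0.089) and 62.4 against 92.2 CPM in germ-free mice (-0.56, -0.83 to -0.31).

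The genes whose levels ran most like a member were read over the same 36 sums, among 7002 genes with at least 500 UMIs, as descriptions with no p. Lrrc32 ran with Foxp3 itself (r = 0.95), Cish, an inhibitor of cytokine signalling (0.95), and Il2ra, the IL-2 receptor α chain (0.94). Tgfbr1 ran with the nuclear receptor cofactor Nrip1 (0.96), Cybb (0.94) and Bcl2l15 (0.93). Itgb8 ran with Itm2c (0.92), the Wnt carrier Wls (0.92) and Rgs16 (0.91). Smad7 ran with 4930523C07Rik (0.92), Arhgap15 (0.89) and Arhgef1 (0.89), and Tgfbr2 with Tprgl (0.84) and Arhgef1 (0.83). Tgfb1 reached 0.85 with Mrps6, Gm45716 and Nab2. The closest genes of Smad2 (Acat2, 0.67) and Smad4 (Rassf2, 0.69) were less like them, and Smad3, with 470 UMIs, was not compared.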

How the data were processed

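The deposited table holds raw UMI counts per cell and gene, all whole and none below 0 when checked. Per the submitters' processing notes, the authors used Cell Ranger and Scanpy 1.5.1 on mm10; the sources used here do not give filters. Of 17478 cells, 303 marked as removed by the authors and 227 with no entry in the deposited cell table were left out, which left 16948. Clusters and subsets are the authors'. No use was made of 3 columns of the cell table. How doublets were treated is not stated, and none were removed. Of 16791 distinct barcodes, 157 occurred in more than 1 library; such cells were kept apart.

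For each library and class, counts were added up and scaled to CPM (Python 3.11.15, numpy 2.4.6, scipy 1.17.1, pandas 2.3.3), with exact Clopper-Pearson 95% intervals, which cover counting error only. A count of 0 allows up to 3 counts of a sum. Ratios needed 50 UMIs over both libraries. The fit of cells with and without a Foxp3 UMI used edgeR 4.0.16 (R 4.3.3; TMM, filterByExpr, library as block) over all genes with Benjamini-Hochberg adjustment, and DESeq2 1.42.0 as an alternative. Calculations were tested on simulated data. The 9 members and all lists were chosen with earlier results of these data known. Of each list, up to 4 genes per comparison were named, those past 1.5-fold with the interval bound farthest from 0, or with the smallest adjusted p; Itgav, the partner chain of Itgb8, was named besides. For each member with 500 UMIs, the 3 genes with the highest Pearson r of log2(CPM + 10) were named, except 1 that is not reported here. Alternatives changed cell weights, thinning, cluster mix, scaling, UMI minimum, fold, choice of cells, block, tool, filter and libraries. RefSeq promoter windows outside chromosome 18 were found for 5 of 9 members. Windows on chromosome 18, where Smad2, Smad4 and Smad7 lie, were left out for the members by rule.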

Additional observations from a re-analysis of the deposited data

Results flagged for a closer look

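In clusters 0, 3 and 6 the colonization ratio had opposite signs in the 2 strains for 2 members. For Smad2 the log2 ratio was -0.27 in Foxp3CNS1- and 0.75 in Foxp3GFP, a difference of -1.03 (counting interval -1.61 to -0.44). It rests on 55 UMIs in germ-free Foxp3GFP, and over all cells with a Foxp3 UMI, of any cluster, the Foxp3GFP ratio was 0.05. Inside clusters 0, 3 and 6, cells with a Foxp3 UMI had 29.1 CPM of Smad2 in colonized and 15.5 CPM on 17 UMIs in germ-free Foxp3GFP. For Lrrc32 the log2 ratio was -0.05 in Foxp3CNS1- and 0.49 in Foxp3GFP, a difference of -0.54 (-0.81 to -0.27). The Foxp3CNS1- ratios of both Smad2 and Lrrc32 had counting intervals across 0. Each ratio rests on 1 library per group, so none of these differences was tested.

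The 227 cells with no entry in the cell table, which no comparison used, carried 4 of the 9 members above the level of the analysed cells with the counting intervals apart. The share of all genes in that state is not given here, so the count is not read as a result about the members. Tgfbr1 had 131 CPM on 21 UMIs, against 55.6 CPM in analysed cells, and Tgfbr2 had 99.5 CPM on 16 UMIs, against 38.6 CPM. Smad7 had 118 CPM on 19 UMIs, against 50.0 CPM, and Lrrc32 had 112 CPM on 18 UMIs, against 56.5 CPM. Tgfb1, Smad4 and Itgb8 were higher with intervals that overlap, and Smad2 (12.4 against 25.5 CPM) and Smad3 (6.22 against 9.13 CPM) were lower, on 2 and 1 UMIs. These cells were shallow, with a median of 640 UMIs, against 2580 in analysed cells, and no label gives their library.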

How the results depend on the processing

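Under the alternatives, 353 of 376 ratio values moved by less than their counting error, 22 moved by more and 1 was counted as changing sign. Sign changes were counted only for ratios past 1.5-fold in the main setting. The 1 was Itgb8 under colonization in Foxp3GFP, at 0.059 when cells were taken by Foxp3 UMI in place of cluster. The cause was not tested. Smaller ratios could change sign too. Smad3 had a Foxp3GFP colonization ratio of -0.17 in clusters 0, 3 and 6. In all cells with a Foxp3 UMI it had 13.0 CPM in the colonized and 11.1 CPM in the germ-free library. Of 36 ratios in clusters 0, 3 and 6, 6 were past 1.5-fold; with at least 200 UMIs, 1 of 23 was, and 0 were past 2-fold. Of 29 in clusters 1 and 2, 6 were past 1.5-fold; with at least 200 UMIs, 0 of 12 were, and 1 was past 2-fold. Higher minimums and folds leave fewer ratios by construction. In the Foxp3-UMI fit 5 members were called higher, 3 by DESeq2, 3 within clusters 0, 3 and 6 and 3 to 5 with 1 library left out. Called lower was 1 member, with 0 without the block, 2 in cells of 2000 to 6000 UMIs (Smad7 at -0.25 joined), 2 when clusters 0, 3 and 6 with a Foxp3 UMI were set against clusters 1 and 2 without, 0 within clusters 0, 3 and 6, and 1 to 1 with 1 library left out. Of 99 member values in this fit 85 kept their call, 12 lost it and 2 gained it, and 0 changed sign with a call in either setting. Genes without a call could change sign: Smad7 was at -0.12 in the main fit and at 0.32 within clusters 0, 3 and 6. Over all genes 1080 were higher and 815 lower, against 432 and 280 without the block, 529 and 391 by DESeq2, 283 and 199 within clusters 0, 3 and 6, and 703 and 489 without colonized Foxp3GFP. Against clusters 1 and 2 without a Foxp3 UMI, 1617 were higher and 1527 lower. With no filter on low counts 994 were higher and 1118 lower, a split that leans the other way. No groups share replicate numbers in the labels, and a model with additive terms for strain and colonization, which would leave 1 residual degree of freedom, was not fitted. Smad3, Smad4 and Itgb8, with few UMIs, are limited most by depth.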

Other observations

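Cells of clusters 0, 3 and 6 that also had a Foxp3 UMI, 351 to 745 cells a library, were compared between strains as a narrower population. Itgb8 had 38.3 CPM on 39 UMIs in germ-free Foxp3CNS1- and 15.5 CPM on 17 UMIs in germ-free Foxp3GFP (log2 ratio 1.31, counting interval 0.45 to 2.22), and 28.1 and 17.7 CPM in colonized Foxp3CNS1- and Foxp3GFP (0.67, 0.030 to 1.33). In the cells of these clusters without a Foxp3 UMI the germ-free order was the other one, with 19.3 CPM in Foxp3CNS1- and 26.1 CPM in Foxp3GFP. Lrrc32 had 179 and 106 CPM in germ-free Foxp3CNS1- and Foxp3GFP (0.75, 0.41 to 1.10), and 149 and 153 CPM in colonized Foxp3CNS1- and Foxp3GFP (-0.04, -0.27 to 0.20). Smad4 had 6.39 CPM on 15 UMIs in colonized Foxp3CNS1- and 21.7 CPM on 38 UMIs in colonized Foxp3GFP (-1.77, -2.73 to -0.87). Smad2, with 16.6 against 29.1 CPM (-0.81, -1.45 to -0.18), and Tgfbr2, with 23.0 against 37.7 CPM (-0.71, -1.26 to -0.17), were also lower in colonized Foxp3CNS1-. With Itgb8 higher, 4 of 9 members were past 1.5-fold there, where 5.61% of 6368 genes were. In germ-free mice Itgb8 and Lrrc32 made 2 of 6 members with enough UMIs, where 7.03% of 4639 genes were. Tgfbr1 was again lower with colonization, with 107 against 157 CPM in Foxp3CNS1- (-0.55, -0.84 to -0.26) and 102 against 136 CPM in Foxp3GFP (-0.42, -0.74 to -0.10). These values come from 1 library per group and have no test.

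The 303 cells that the authors had removed had a median of 2341 UMIs. They held 12.7 CPM of Lrrc32, against 56.5 CPM in analysed cells, and 30.02 CPM of Tgfbr1, against 55.6 CPM.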
